A study of Rattus norvegicus with 14 samples.

Results

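Liver of rats fed a magnesium-deficient diet was compared with liver of rats fed a standard diet, gene by gene. The comparison used 9 of the 14 arrays of the series, chosen by the diet named in the sample titles: deficient arrays 11 to 14 (n = 4) and standard arrays 6 to 10 (n = 5). The other 5 arrays came from a magnesium-supplemented diet. They entered the normalisation, the choice of probe sets and the estimate of the spread between arrays, but none of the means compared. Every sample was total RNA from the left lateral lobe of the liver, taken at necropsy, and about 5 µg of it went into each Affymetrix rat array of 8799 probe sets. How much magnesium each diet held, how long it was fed, and the strain, age and sex of the rats are not in the labels. Whether the arrays hold RNA of separate animals is not stated either, so every p-value below measures only the spread between these arrays, which may be technical.

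Magnesium is the counter-ion of ATP and a cofactor of kinases, ATPases and polymerases, and the liver is one of the tissues that take it up from blood. Dietary deficiency is known mainly for low plasma magnesium, altered blood lipids and signs of inflammation and oxidative stress in rodents. The comparison asks which liver transcripts differ in abundance between deficient and standard feeding. In whole tissue, fewer cells of a type and less RNA per cell cannot be told apart.

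The arrays were of mixed quality, and measures of quality overlapped between the diets. Median deposited signals of the 9 arrays ran from 18.0 units on deficient array 13 to 27.6 units on deficient array 11. RNA quality was read from the 3'/5' ratio of control probe sets for Gapdh and beta-actin, which is high for broken RNA or short copies. For Gapdh its log2 averaged 1.84 ± 0.65 (SD, n = 4) over the deficient arrays and 1.64 ± 0.61 (SD, n = 5) over the standard arrays (two-sided exact permutation p = 0.595). For beta-actin it averaged 1.85 ± 0.82 (SD, n = 4) against 1.52 ± 0.71 (SD, n = 5), with an exact permutation p of 0.516. Adjusted over the 3 array measures compared, each p was 0.611, and the smallest p that 4 against 5 arrays allow is 0.00794. Deficient array 13 and standard array 10 had the highest ratios, 2.68 and 2.65 for Gapdh. The supplemented arrays, which share in the estimate of the spread, differed in quality too. Supplemented array 5 had a Gapdh ratio of -0.12 and a median of 34.4 units. The other supplemented arrays had Gapdh ratios from 0.76 to 1.12. The first principal component held 25.1% of the variance of the 9 arrays, and each of the first 2 components had arrays of both diets at both ends.

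The tissue label was borne out by the hepatocyte markers. Alb (albumin) had the highest signal of all genes, and 10 of 10 hepatocyte markers on the array were above the filter on dim probe sets. Their median difference between the diets was -0.02 on the log2 scale, and for 9 of them the 95% interval of the difference lay within 2-fold in either direction. The 10 brightest genes encode plasma proteins of the hepatocyte such as Alb, Apoe, Hp, Apoc3 and Serpina1, and the differences of the 10 ran from -0.11 to 0.11. Quantile normalisation gives the brightest probe sets nearly the same value on every array, so this narrow range is in part set by the scaling. With the deposited values, 10 of 10 were lower on the deficient diet, Alb by -0.17 and Gc by -0.24.

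No gene passed the test over all probe sets. At a limma adjusted p under 0.05, 0 of 5133 probe sets (0%) differed between the diets, and the smallest adjusted p was 0.999. At an unadjusted p under 0.05, limma returned 156 probe sets (3.04%), of which 68 were higher on the deficient diet. Counting 1 probe set per gene, the brightest, there were 98 of 3073 genes (3.19%) at that unadjusted p, 46 higher (1.5%) and 52 lower (1.69%) on the deficient diet. The mean was higher on the deficient diet for 1623 genes (52.8%). An unadjusted p under 0.05 is met by about that share of features when nothing differs, and the shares of 3.04% and 3.19% lay below it.

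**Figure D1:**
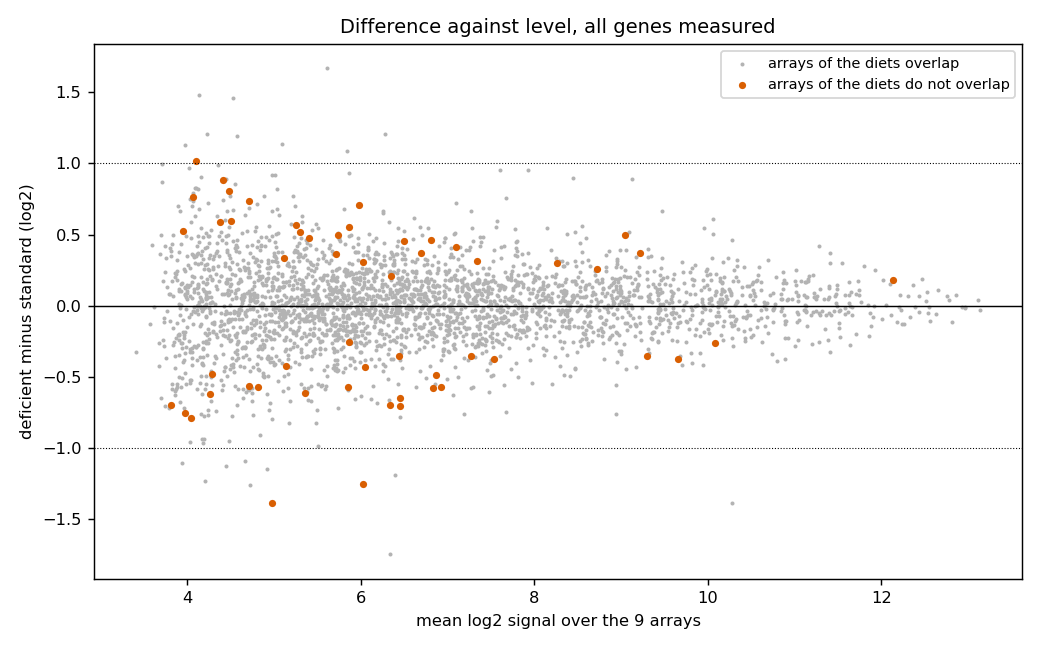
Deficient minus standard difference (log2) against the mean log2 signal of the 9 arrays, 1 point for each of 3073 genes. Dotted lines mark 2-fold. The 54 genes whose arrays do not overlap between the diets (orange) lie among the others, and 21 genes lie beyond 2-fold, 14 of them in the dimmest tercile.

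What the arrays could have shown is given by the intervals. Signals are on a log2 scale throughout, on which a difference of 1 is 2-fold, and all differences are deficient minus standard. With 4 and 5 arrays a diet, the precision of each is limited by their number. The median difference over all genes was 0.01 and the median size of a difference 0.16, with the middle 90% of genes between -0.46 and 0.46. The median SD of a gene was 0.31 over the deficient and 0.32 over the standard arrays. The 95% interval of a difference had a median half-width of 0.53, or 1.44-fold. For 2378 genes (77.4%) the whole interval lay within 2-fold, and for 965 (31.4%) it lay within 1.5-fold.

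Precision depended on the level of the signal. Among the brightest tercile of genes, 89.6% had an interval within 2-fold, against 85.2% in the middle tercile and 57.4% in the dimmest. Of the 21 genes that differed by more than 2-fold in the mean, 10 higher and 11 lower on the deficient diet, 14 were in the dimmest tercile and 1 in the brightest. Of the 21, 3 had arrays that did not overlap between the diets, Pstpip1, Scn4a and Mx2, where 1.76% of all genes did not. By limma 9 of the 21 had an unadjusted p under 0.05, where 3.19% of all genes did. The 21 were picked by the size of the same difference, so these counts are not independent of it.

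The largest mean differences in either direction came from genes that varied widely within a diet. Igfbp2, a carrier of insulin-like growth factors that hepatocytes secrete, gave 6.89, 5.30, 7.14 and 6.82 on deficient arrays 11 to 14 and 3.59, 3.78, 5.04, 5.80 and 6.14 on standard arrays 6 to 10. Standard arrays 9 and 10 lay above deficient array 12, so the diets overlapped. The difference was 1.67 with a 95% interval from -0.20 to 3.53 (limma unadjusted p = 0.0763, adjusted p = 0.999), and 3 of 3 probe sets of the gene were higher on the deficient diet. Cxcl14, which encodes a chemokine, gave 6.05, 4.73, 5.11 and 5.57 on the deficient arrays and 9.52, 8.78, 5.32, 2.53 and 9.40 on the standard arrays. Its standard arrays fell far apart, with 3 above every deficient array and 1 below. The difference of -1.75 had an interval from -4.55 to 1.05.

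In 28 genes (0.911%) every deficient array lay above every standard array, and in 26 genes (0.846%) every deficient array lay below. The arrays can be split into 4 and 5 in 126 ways. When nothing differs, each direction is therefore met by a share of about 0.00794 of genes. The shares of 0.911% and 0.846% lay little above that, so separation alone does not mark a gene as different between the diets. Of these 54 genes (1.76% of all), 32 also had an unadjusted p under 0.05. The 10 in each direction with the smallest p are described here. The separation depends on the scaling. Of the 54, 27 were still separate with the deposited values and 30 with arrays centred on their median, and of the 20 described these were 14 and 12. Both alternatives kept Hdac6, Pstpip1, Uaca, Ssh3, Gcn1, Rabep1, Scn4a, Sod3, Itpr3 and Pax8.

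Among those higher on the deficient diet, Hdac6 had the smallest p. It encodes a cytoplasmic deacetylase of tubulin, and it gave 6.32, 6.43, 6.46 and 6.26 on the deficient arrays and 5.49, 5.55, 5.87, 5.85 and 5.54 on the standard arrays. All deficient arrays lay close together and clear of the highest standard array, and the difference was 0.71 ± 0.17 (SE), or 1.63-fold (limma unadjusted p = 0.000882, adjusted p = 0.999). Pstpip1, an adaptor of the actin cytoskeleton in blood cells, gave 4.68, 4.95, 4.68 and 4.35 against 3.49, 3.38, 3.72, 3.70 and 3.97. The groups did not overlap, the gene was in the dimmest tercile, and the difference was 1.01 ± 0.28 (SE). Ssh3, a phosphatase of cofilin, gave 5.05, 4.54, 5.12 and 4.90 against 4.18, 4.34, 4.09, 4.41 and 3.07. Standard array 10 was far below the other standard arrays, and the difference was 0.89. This gene too was in the dimmest tercile.

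Brighter genes in this direction differed by less. Clta, the light chain of clathrin, gave 9.46, 9.36, 9.46 and 9.40 on the deficient and 9.00, 9.20, 8.96, 9.19 and 8.92 on the standard arrays. The deficient arrays were tightly grouped, and the difference was 0.37 with an interval from 0.08 to 0.65. Rabep1, an effector of endosomal Rab proteins, gave 7.30, 7.18, 7.50 and 7.32 against 7.17, 6.91, 6.89, 6.64 and 6.98. Deficient array 12 and standard array 6 nearly touched, and the difference was 0.41. Uaca, Rcn3, Cptp, Gcn1 and Ebp made up the rest, with differences between 0.50 and 0.73. Of these only Ebp lay outside the dimmest tercile.

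**Figure D2:**
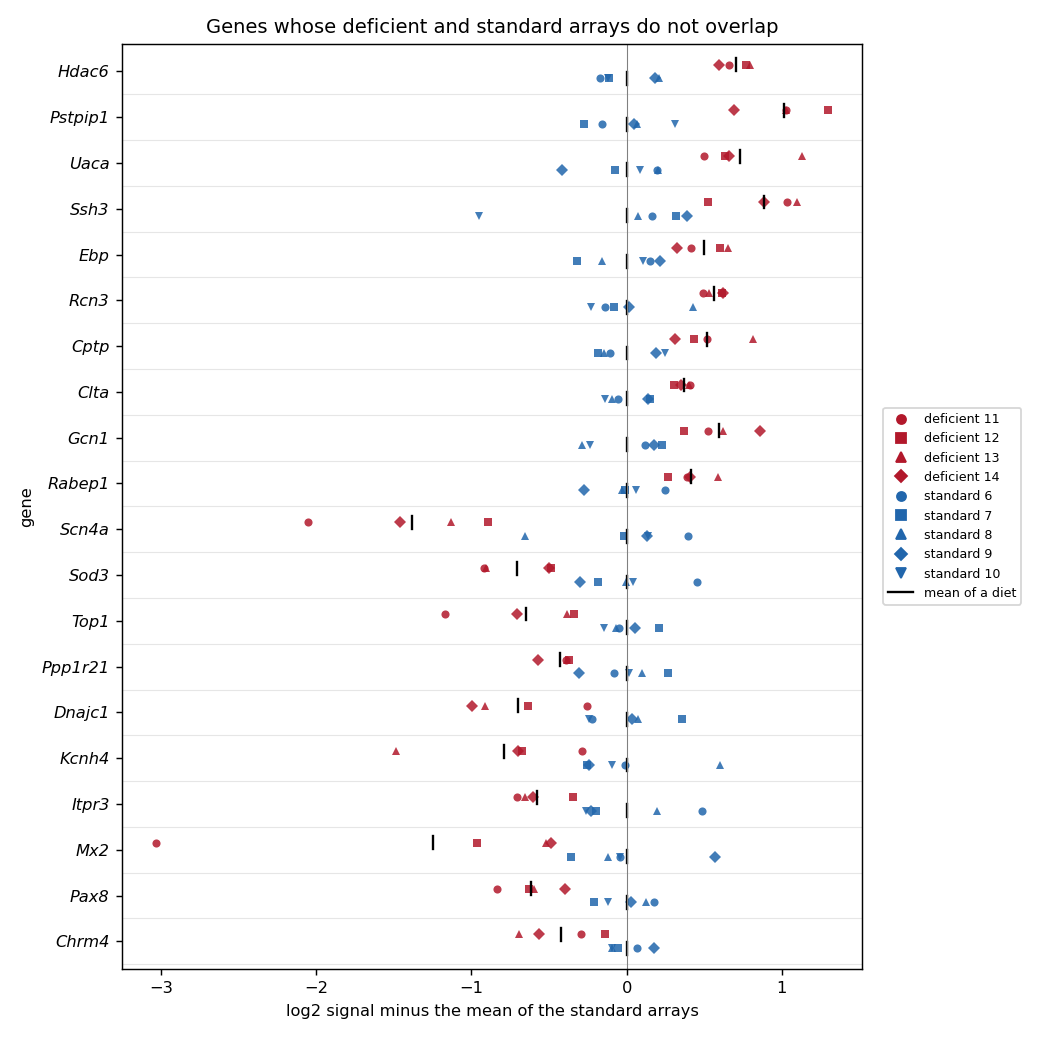
Log2 signal of each array minus the mean of the standard arrays, for the 10 genes above and the 10 below with the smallest p among genes whose arrays do not overlap. Red symbols are the 4 deficient arrays, blue symbols the 5 standard arrays, and black bars the means of the diets. In several genes 1 array stands away from its diet, as deficient array 11 does in Mx2 and standard array 10 in Ssh3.

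Among genes lower on the deficient diet, Scn4a had the smallest p. It encodes the sodium channel of skeletal muscle and gave 3.54, 4.70, 4.47 and 4.14 on the deficient arrays and 5.99, 5.58, 4.94, 5.73 and 5.73 on the standard arrays. Deficient array 11 was the lowest and standard array 8 came nearest to the deficient arrays. The signal was low, with a mean of 4.98 over the 9 arrays, where the dimmest tercile of genes reached 5.59. The difference was -1.38 ± 0.33 (SE), or 2.61-fold (limma unadjusted p = 0.000734, adjusted p = 0.999). Mx2, an interferon-induced GTPase, gave 3.55, 5.61, 6.06 and 6.09 against 6.53, 6.22, 6.46, 7.15 and 6.54. Deficient array 11 stood far below the other deficient arrays, which lay just under the standard arrays. The difference was -1.25 with an interval from -2.24 to -0.26.

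Sod3 and Itpr3 were separate under every scaling tried. Sod3, the extracellular superoxide dismutase, gave 5.84, 6.28, 5.86 and 6.27 on the deficient and 7.22, 6.58, 6.76, 6.46 and 6.80 on the standard arrays. The gap between the diets was narrow, and the difference was -0.70. Itpr3, a channel that releases calcium from internal stores, gave 6.39, 6.74, 6.43 and 6.48 against 7.58, 6.90, 7.29, 6.86 and 6.83. The highest deficient and the lowest standard array were close, and both probe sets of the gene were lower on the deficient diet. Top1, the DNA topoisomerase that relieves supercoils, differed by -0.65 with deficient array 11 lowest. Ppp1r21, Dnajc1, Kcnh4, Pax8 and Chrm4 differed by -0.42 to -0.79, and all but Ppp1r21 were in the dimmest tercile.

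Cholesterol synthesis was the gene list with the largest median difference, 0.50 against 0.01 over all genes. All 14 members measured were higher in the mean on the deficient diet, where 52.8% of all genes were. By limma, 3 of the 14 had an unadjusted p under 0.05, where 3.19% of all genes did, and 0 had an adjusted p under 0.05. Ebp was the 1 member whose arrays did not overlap, as in 1.76% of all genes. The count of 14 held with the deposited values and with arrays centred on their median, and it was 12 without deficient array 14. The enzymes stand in sequence on 1 pathway and are known to be induced together when cell cholesterol is low, so they are not independent measurements.

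Acat2, Idi1 and Fdps, of the steps from acetyl-CoA to farnesyl diphosphate, varied widely between standard arrays. Acat2, which condenses the first acetyl units, gave 8.90, 9.16, 8.70 and 9.00 on the deficient arrays and 8.80, 6.99, 6.83, 8.73 and 8.88 on the standard arrays. Only standard arrays 7 and 8 were low. The difference was 0.89 with an interval from -0.01 to 1.80, and the other probe set of the gene showed the same pattern at 1.38. Idi1, which isomerises the isoprenoid unit, gave 7.18, 6.54, 7.27 and 9.03 against 6.90, 6.38, 5.39, 8.70 and 6.55. Fdps, which joins the units to farnesyl diphosphate, gave 10.32, 9.98, 9.71 and 11.37 against 10.55, 9.09, 8.50, 11.40 and 9.67. In both genes deficient array 14 and standard array 9 were high together, and the differences of 0.72 and 0.50 lay well inside the spread.

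Squalene epoxidase, encoded by Sqle and a controlled step of the pathway, gave 8.11, 7.50, 7.47 and 9.48 on the deficient and 7.84, 6.29, 5.58, 8.60 and 7.64 on the standard arrays. Deficient array 14 and standard array 9 were again the highest and standard array 8 the lowest. The difference was 0.95 with an interval from -0.20 to 2.10. Cyp51, the lanosterol demethylase, gave 10.49, 10.34, 10.55 and 10.22 against 10.07, 9.41, 8.81, 10.38 and 10.28. The deficient arrays were level and standard arrays 7 and 8 low, and 4 of 5 probe sets of Cyp51 were higher on the deficient diet. By their brightest probe sets Mvk, Fdft1 and Dhcr7 differed least, by 0.17 to 0.18. This order depends on the probe set: the other probe set of Mvk gave 0.56 and the 3 others of Fdft1 gave 0.36 to 0.45. Without deficient array 14 the brightest sets gave -0.01 for Mvk and -0.18 for Fdft1.

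By their brightest probe sets, the 3 members with an unadjusted p under 0.05 were all of the late steps. This depends on the probe set. The brightest set of Lss gave 0.42 (limma unadjusted p = 0.191). Its other probe sets gave 0.82 and 1.90 (limma unadjusted p = 0.0113 and 0.0217), the last with standard array 6 at the floor. Ebp, the sterol isomerase, gave 9.24, 9.43, 9.48 and 9.15 on the deficient arrays and 8.98, 8.50, 8.67, 9.04 and 8.93 on the standard arrays. Every deficient array was above every standard array, although standard array 9 came close to deficient array 14, and with arrays centred on their median they overlapped. The difference was 0.50 ± 0.15 (SE), with an interval from 0.18 to 0.81 (limma unadjusted p = 0.00428, adjusted p = 0.999). Msmo1, the sterol methyl oxidase, gave 9.62, 9.35, 9.89 and 10.53 against 9.32, 8.56, 8.65, 9.85 and 9.52, and differed by 0.67. Nsdhl, the sterol dehydrogenase that acts beside it, gave 9.65, 9.64, 9.51 and 9.32 against 9.45, 9.02, 8.58, 9.56 and 9.04, and differed by 0.40. In both, the deficient arrays reached into the upper standard arrays.

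The same arrays were at the ends across the list. Standard array 8 was the lowest of the 9 arrays in 10 of the 14 genes and standard array 7 in the other 4. Deficient array 14 was the highest in 6 and deficient array 11 in 3. As a mean deviation from the 9-array mean over the 14 genes, the deficient arrays scored 0.21, 0.07, 0.19 and 0.70 and standard arrays 6, 7, 9 and 10 scored -0.02, -0.70, 0.56 and -0.01, with standard array 8 lower than all of these. Standard arrays 7 and 8 were thus far below the other standard arrays, and standard array 9 lay above 3 of the 4 deficient arrays. Leaving out standard array 8 brought the median difference to 0.35, leaving out standard array 7 to 0.39 and leaving out standard array 9 to 0.70.

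**Figure D3:**
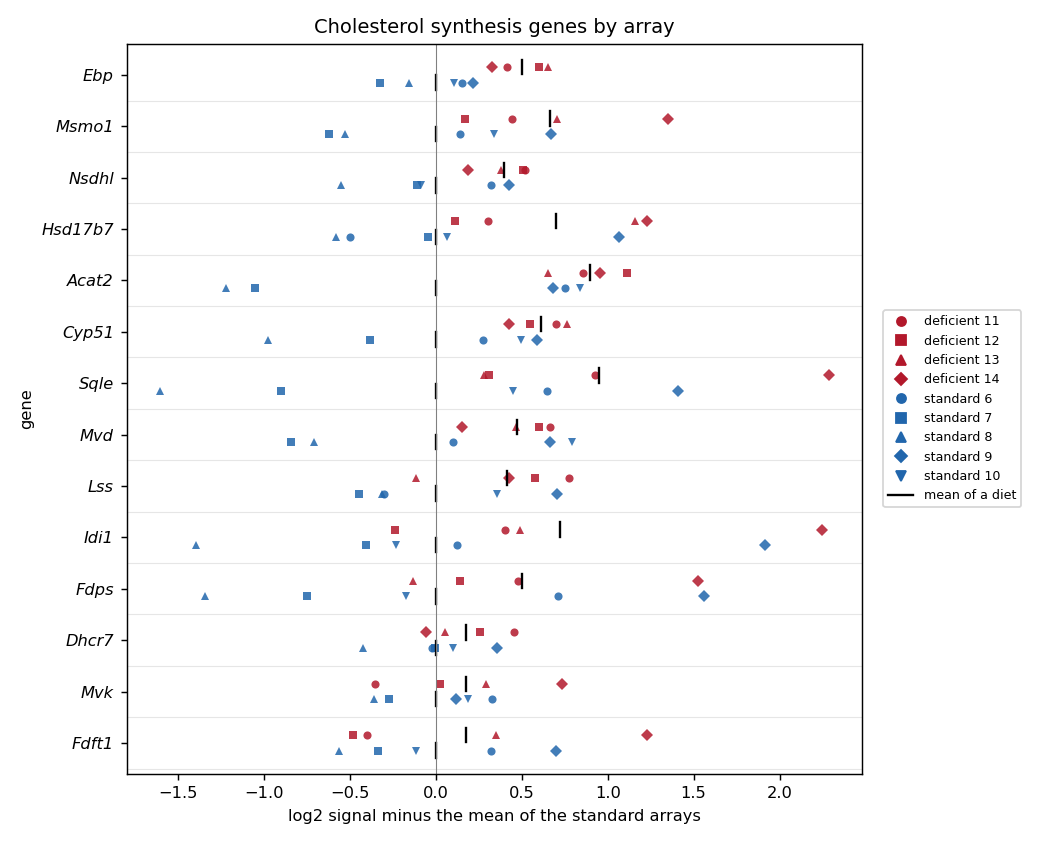
Log2 signal of each array minus the mean of the standard arrays for the 14 cholesterol synthesis genes, ordered by p. Red symbols are deficient arrays, blue symbols standard arrays and black bars the means of the diets. In each gene standard array 7 or standard array 8 lies furthest left, and deficient array 14 and standard array 9 reach furthest right in Sqle, Idi1 and Fdps.

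The promoters of Ebp, Msmo1 and Nsdhl are shown because, by brightest probe sets, these 3 members had the smallest p of the list. Each is 300 bases long and holds the annotated start of the gene, on the plus strand of the RefSeq build GRCr8. They are at chrX:16971212-16971511 for Ebp, chr16:29746863-29747162 for Msmo1 and chrX:155817110-155817409 for Nsdhl. Capitals mark CCAAT or its reverse complement, the letters of the box that the factor NF-Y is known to bind in sterol-regulated promoters.
Ebp: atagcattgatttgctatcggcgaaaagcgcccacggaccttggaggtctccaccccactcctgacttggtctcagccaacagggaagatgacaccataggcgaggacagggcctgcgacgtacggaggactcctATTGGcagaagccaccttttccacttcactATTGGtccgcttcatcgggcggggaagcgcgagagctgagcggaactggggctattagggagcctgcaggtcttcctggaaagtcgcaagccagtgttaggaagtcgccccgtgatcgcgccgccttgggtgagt
Msmo1: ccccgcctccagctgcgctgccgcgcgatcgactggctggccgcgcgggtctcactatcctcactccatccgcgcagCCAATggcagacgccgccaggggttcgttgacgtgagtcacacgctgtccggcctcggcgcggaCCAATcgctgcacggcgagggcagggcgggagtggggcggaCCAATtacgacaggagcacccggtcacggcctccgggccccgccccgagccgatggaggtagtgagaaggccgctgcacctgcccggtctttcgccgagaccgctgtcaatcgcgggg
Nsdhl: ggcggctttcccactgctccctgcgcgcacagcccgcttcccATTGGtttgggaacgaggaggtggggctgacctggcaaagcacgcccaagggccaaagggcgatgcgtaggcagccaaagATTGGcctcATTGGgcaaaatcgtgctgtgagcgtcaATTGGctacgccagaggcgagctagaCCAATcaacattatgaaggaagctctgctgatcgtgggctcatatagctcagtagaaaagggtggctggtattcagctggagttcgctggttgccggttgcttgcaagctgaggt
RefSeq promoters were matched for 12 of the 14 genes. On either strand, CCAAT was in 9 of the 12, with 2 copies in Ebp, 3 in Msmo1 and 5 in Nsdhl, and in 37.5% of all 33469 rat promoters of that length. GGGCGG, the letters of a GC box, was in 10 of the 12 and in 33.1% of all promoters. TCACNCCAC, the core letters of a sterol regulatory element, was in 0 of the 12 and in 1.12% of all promoters. A match is a description of the letters and not of a bound site.

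Fatty acid synthesis had a median near 0, with its low arrays in common with cholesterol synthesis. Of 11 genes measured, 8 were higher in the mean on the deficient diet, the median difference was 0.02, and its sign was negative without standard array 8. The standard arrays scored 0.56, -0.43, -0.56, 0.53 and -0.01 on this list and the deficient arrays -0.13, 0.12, 0.00 and -0.08. All deficient arrays lay between the extremes of the standard arrays, among which arrays 7 and 8 were again the lowest. Scd, the stearoyl-CoA desaturase, had a difference of 0.07, and Acly, which supplies cytosolic acetyl-CoA, of 0.18. Scd2, a desaturase of low signal in these livers, was the 1 member with an unadjusted p under 0.05 by limma. Over all genes that share was 3.19%. Scd2 differed by -0.79 (limma unadjusted p = 0.0348, adjusted p = 0.999), with deficient array 11 at 3.34 against 4.74 to 5.13 on the other deficient arrays. Of its 3 probe sets 2 were lower on the deficient diet, and their mean differed by -0.35.

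Other lipid lists had medians near 0. Of 8 genes that sense, import or export sterols, 4 were higher, with a median difference of 0.00. Insig1, which holds back the sterol-sensing complex and is itself a sterol target, differed by 0.46 with an interval from -0.11 to 1.03. Apob, the backbone of very low density lipoprotein, gave 11.97, 11.56, 11.79 and 11.54 on the deficient and 11.63, 11.50, 11.25, 11.39 and 11.32 on the standard arrays. Only standard array 6 reached the deficient range, and the difference was 0.30 (limma unadjusted p = 0.0364, adjusted p = 0.999). Of the 4 probe sets of Apob 3 were higher on the deficient diet, and averaged over the 4 the difference was 0.02. The median over 14 apolipoprotein genes was 0.07, with 8 higher.

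Fatty acid oxidation lists had small medians that depended on the scaling and on single arrays. In mitochondrial oxidation 8 of 19 genes were higher (median -0.08), and among peroxisomal genes 7 of 17 (median -0.13). The mitochondrial median was -0.01 with arrays centred on their median, and the peroxisomal median was -0.02 without standard array 7. Acadm, the medium-chain acyl-CoA dehydrogenase, gave 9.39, 9.36, 9.44 and 9.62 on the deficient and 9.64, 10.14, 9.81, 9.88 and 9.67 on the standard arrays. The diets did not overlap, as in 1.76% of all genes, but nearly met at deficient array 14. The difference was -0.38 (limma unadjusted p = 0.0499, adjusted p = 0.999). Fabp1, the abundant fatty acid binder of liver, differed by -0.21.

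Genes of magnesium transport bear most directly on the diet, and none passed the test. Of 10 genes of the list on the array, 8 were above the filter, and 2 of these were higher in the mean on the deficient diet, with a median of -0.11, which was -0.03 without deficient array 12. By limma 0 had an unadjusted p under 0.05, where 3.19% of all genes did, and for 7 the interval lay within 2-fold. Slc41a2, a magnesium transporter with a bright signal in these livers, gave 9.51, 9.24, 9.67 and 9.49 against 9.62, 9.93, 9.53, 9.45 and 9.19. The diets overlapped throughout, and the difference was -0.07 with an interval from -0.41 to 0.28. Slc41a3, a transporter of the same family, gave 4.89, 4.58, 4.47 and 2.83 against 4.82, 4.60, 4.80, 4.45 and 4.45. Deficient array 14 alone was low, and without it the difference of -0.43 became 0.02.

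The other 6 measured magnesium genes had differences no larger than 0.16 in size. Magt1, a subunit of the glycosylation machinery that is also linked to magnesium uptake, differed by -0.13, with an interval from -0.82 to 0.56. Cnnm4, linked to magnesium export, differed by 0.14 and Nipal2 by -0.09. The phosphatases Ptp4a1 and Ptp4a2, which bind CNNM proteins, differed by -0.13 and 0.16, and Egf, a hormone of magnesium reabsorption in kidney, by -0.15. Fxyd2 and Slc12a3, known from renal magnesium handling, were under the filter. They differed by 0.23 and -0.52, with intervals from -0.93 to 1.39 and from -1.35 to 0.31. Among 14 calcium and sodium-potassium pumps and release channels the median was 0.03, and Itpr3 was the 1 gene whose arrays did not overlap, where 1.76% of all genes did not.

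Plasma protein and inflammation lists had medians near 0. The 22 acute phase genes had a median of 0.00, with 11 higher. Itih3, an acute phase inhibitor chain, gave 12.27, 12.27, 12.19 and 12.22 on the deficient and 12.06, 11.83, 12.13, 12.13 and 12.15 on the standard arrays. Its diets did not overlap, as in 1.76% of all genes, and the difference was 0.18. Lbp, which binds bacterial lipopolysaccharide, differed by 0.49 with an interval from -0.20 to 1.18. Of 20 inflammatory cytokine, chemokine and receptor genes, 14 were higher. Their median was 0.08, and without deficient array 11 it was -0.02. By limma 0 of the 20 had an unadjusted p under 0.05, where 3.19% of all genes did. Complement genes had a median of 0.03 and interferon and antigen presentation genes of 0.04.

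Among the stress and redox lists only that of heat shock genes had a median more than 0.1 from 0. Of 14 heat shock genes 2 were higher, with a median of -0.27. By limma 0 of the 14 had an unadjusted p under 0.05, where 3.19% of all genes did. Hspa9, the mitochondrial chaperone, differed by -0.43 and Stip1, a co-chaperone, by -0.38. Standard array 10 scored highest on this list at 0.45 and deficient array 13 lowest at -0.36, while deficient array 11 at 0.14 lay above 4 of the 5 standard arrays. Standard array 10 and deficient array 13, at opposite ends of these scores, had the highest 3'/5' ratios of the 9 arrays. Without standard array 10 the median of the list was -0.15 with 3 of 14 higher, and without both arrays it was -0.14 with 6 of 14 higher. With the Gapdh ratio as a covariate it was -0.28, with 3 of 14 higher. In antioxidant defence 8 of 23 genes were higher (median -0.06, or 0.00 with arrays centred on their median). Sod3 was the 1 gene of the 23 that did not overlap, where 1.76% of all genes did not. Endoplasmic reticulum genes had a median of -0.03, which was 0.04 without standard array 10. Of 19 immediate early genes 11 were higher (median 0.01), and of 10 iron and metallothionein genes 6 (median 0.03).

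Amino acid and energy lists had small median differences. Of 17 genes of methionine and sulfur amino acids 3 were higher (median -0.10, or -0.03 without standard array 6). Cbs, which commits homocysteine to cysteine synthesis, was 1 of the 3 and gave 8.89, 8.41, 9.21 and 8.57 on the deficient and 8.13, 8.40, 8.62, 8.12 and 8.39 on the standard arrays. Standard array 8 lay within the deficient range, and the difference was 0.44 (limma unadjusted p = 0.0378, adjusted p = 0.999). Among 10 urea cycle genes the median was 0.08, or -0.08 without standard array 8, and Ass1, which makes argininosuccinate, differed by 0.28. The 50 oxidative phosphorylation genes had a median of -0.04, with 48 intervals within 2-fold, and 24 proteasome genes of -0.05, with 23. Of 39 cytosolic ribosomal protein genes 34 were higher, but by a median of only 0.11, and 37 intervals lay within 2-fold.

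Growth hormone and sex-patterned genes varied more between single arrays than between diets. Of 31 genes of this list 9 were higher on the deficient diet, with a median of -0.17 (from -0.25 to -0.11 with 1 array left out), and only 12 intervals lay within 2-fold, compared with 77.4% of all genes. Cyp2c12, a P450 that growth hormone secretion makes abundant in female rat liver, gave 8.93, 5.24, 8.87 and 4.78 on the deficient arrays and 5.77, 4.05, 4.76, 9.09 and 5.08 on the standard arrays. Deficient arrays 11 and 13 and standard array 9 were high, and the remaining 6 arrays were far lower. Cyp2c11, abundant in male rat liver, gave 10.75, 11.45, 11.00 and 11.72 against 11.97, 12.04, 12.02, 9.74 and 12.02. The arrays that were high for Cyp2c12 were the lowest for Cyp2c11.

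The male-patterned P450 genes Cyp3a2, Cyp2c13 and Cyp2a2 had the same order. Cyp3a2 gave 8.16, 9.88, 9.10 and 10.33 on the deficient and 9.41, 10.83, 10.86, 6.20 and 10.18 on the standard arrays. Cyp2c13 gave 9.95, 11.36, 9.86 and 11.53 against 11.58, 11.94, 11.66, 8.93 and 11.15. Cyp2a2 gave 9.52, 9.93, 9.30 and 10.17 against 9.69, 10.74, 10.53, 8.85 and 10.50. In these 3 genes too, standard array 9 was the lowest and deficient arrays 11 and 13 came next. Not every P450 gene followed this order. Cyp2c22 was highest on standard array 9, at 11.54, and lowest on deficient arrays 13 and 11. Cyp2c7 was highest on standard array 9, at 12.44, and lowest on standard array 10, at 9.35. Cyp2c13 and Cyp2a2 were picked after their values were seen, the labels give no sex, and these families are similar enough in sequence for probes to be shared. Igfals, the hepatocyte subunit of the circulating growth factor complex, was the 1 gene of the 31 that did not overlap, against 1.76% of all genes, with deficient arrays at 9.90 to 9.98 and standard arrays at 10.11 to 10.27.

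**Figure D4:**
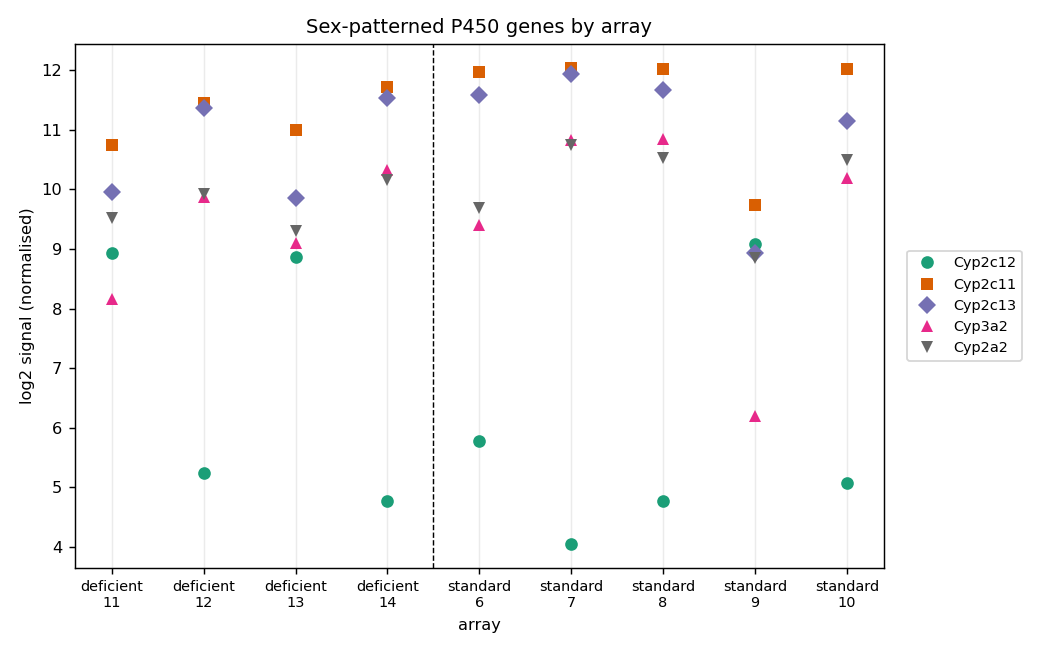
Normalised log2 signal of 5 sex-patterned P450 genes on each of the 9 arrays, with deficient arrays left of the dashed line and standard arrays right of it. Cyp2c12 (green circles) is near 9 on deficient arrays 11 and 13 and standard array 9, the arrays on which the other genes are lowest.

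Clock genes were another source of spread within both diets. Dbp, an output gene of the circadian clock with a large daily rhythm in liver, gave 1.97, 5.70, 7.69 and 6.52 on the deficient and 5.13, 1.97, 8.19, 6.85 and 7.52 on the standard arrays. It was at the floor on deficient array 11 and standard array 7, and no diet held only high or only low arrays. Nr1d1, a repressor within the clock, gave 6.12, 6.83, 7.59 and 7.00 against 6.83, 6.57, 7.26, 7.07 and 7.72. Deficient array 11 and standard array 7 were again among the lowest. Over the 8 clock genes the arrays scored -0.64, -0.03, 0.59 and 0.15 on the deficient and -0.30, -0.32, 0.31, -0.14 and 0.38 on the standard diet, with a median difference of 0.00. The hour of necropsy is not given in the sources used here.

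Cdh17, a cadherin of gut and liver, and Hdc, the histidine decarboxylase that makes histamine, were also among the genes of widest spread. Cdh17 gave 5.13, 4.57, 4.87 and 4.48 on the deficient arrays and 1.97, 5.58, 7.09, 3.53 and 6.38 on the standard arrays. Hdc gave 1.97, 6.54, 5.30 and 5.14 against 5.46, 4.20, 5.42, 4.21 and 2.93. In each gene the ends of the range were held by arrays of 1 diet, and the means of the diets differed by -0.15 and 0.29. The SD was larger on the standard diet in 1665 genes (54.2%).

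Markers of other cell types were examined over whole lists. Red blood cell genes had a median of 0.25, with 5 of 6 higher, and Hbb, a beta globin, gave 11.29, 11.87, 11.76 and 11.39 on the deficient and 11.37, 11.10, 11.25, 11.36 and 11.31 on the standard arrays. Deficient arrays 12 and 13 were high and the other 2 lay at or near the standard range. The list scored from -0.39 to 0.53 over the deficient and from -0.39 to 0.15 over the standard arrays. With 1 array left out its median ran from 0.17, without deficient array 12, to 0.40, without deficient array 14. Bile duct genes had a median of 0.17, with 6 of 7 higher, and the median was 0.11 without deficient array 11 and 0.25 without deficient array 12. Macrophage genes had a median of 0.09, with 7 of 11 higher, and without standard array 10 the median was -0.03. Clec4f, the lectin that defines Kupffer cells in rodents, differed by -0.00. Dcn, a proteoglycan of fibroblasts, differed by 0.56 with no overlap, as in 1.76% of all genes. Of the 10 stellate cell genes 5 were higher, and their median was 0.00.

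Marker genes of pancreas, fat and muscle were lower in the mean in 9 of 10 cases, with a median of -0.26. Over all genes, 52.8% were higher. The source of these signals in liver RNA was not tested. Lep, the leptin of fat cells, gave 8.03, 8.45, 7.46 and 7.64 on the deficient and 8.69, 8.20, 8.55, 8.55 and 8.25 on the standard arrays. Amy2a3, the pancreatic amylase, gave 7.26, 7.73, 6.95 and 7.21 against 7.54, 8.07, 7.84, 7.64 and 7.26. Both overlapped, with deficient arrays 13 and 14 low. The list scored from -0.33 to 0.10 on the deficient and from -0.02 to 0.29 on the standard arrays, and 10 of its 24 genes on the array were above the filter.

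Across the 43 lists with at least 5 genes measured, the median difference ran from -0.27 for heat shock proteins to 0.50 for cholesterol synthesis, and 32 of the medians lay within 0.1 of 0. With 1 array left out, the median took both signs in 25 of the 43. In 0 of the 43 lists did the scores of the deficient arrays lie wholly above or wholly below those of the standard arrays. By limma, 0 genes of any list had an adjusted p under 0.05.

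**Figure D5:**
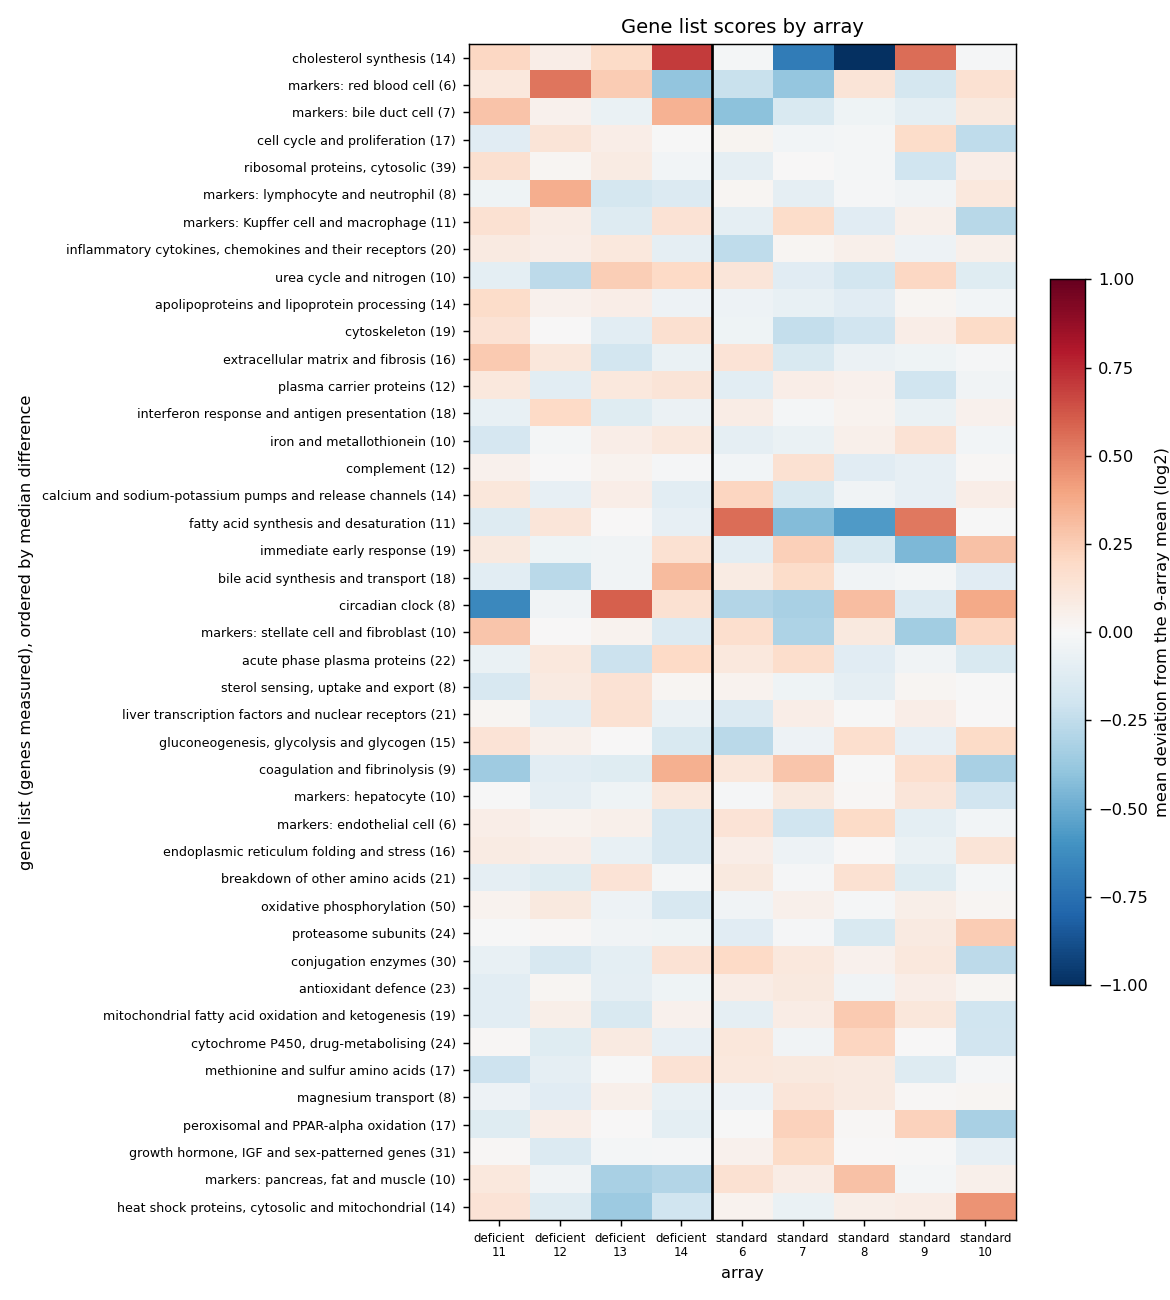
Score of each of 43 gene lists on each array, with the genes' deviations from their 9-array means averaged (log2, colour), with deficient arrays left of the black line. Lists are ordered by the median difference, from cholesterol synthesis at 0.50 to heat shock proteins at -0.27. The strongest colours lie in single arrays, such as standard arrays 7 and 8 for cholesterol synthesis, and no row divides at the line.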

How the data were processed

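Liver RNA of 9 arrays (4 deficient, 5 standard) was compared, with 5 supplemented arrays in the same model. The deposited values are linear intensity signals per probe set, from 0.0104 to 16556 units. The software behind them is not given in the sources used here, and no detection calls were used. With the top and bottom 2% of signals trimmed, the mean signal averaged 150.3 units over the arrays of the deposited table. A common scaling may have been applied before deposit. The array medians differed by up to 1.91 times.

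Signals of the 8799 probe sets on all 14 arrays, less 59 controls, were taken to log2 and quantile normalised. A floor of 3.93 units, the 20th percentile of the pooled values, was applied, and probe sets were kept with a mean above the pooled 40th percentile (14.3 units), leaving 5133. Gene symbols came from the platform annotation, updated through the RefSeq table of the rat build GRCr8. Leaving controls aside, 7006 probe sets carried 1 symbol, 308 several and 1426 none, and 6996 symbols were found in that table. The brightest probe set stood for a gene, giving 3073 genes. Differences were tested two-sided with limma 3.58.1 in R 4.3.3 (lmFit, contrasts and eBayes with a trend) in 1 model of the 3 diets, with Benjamini-Hochberg adjustment over all probe sets kept. Folds are of floored signals and understate those of dim genes. Intervals are 95% intervals of that fit. The script was tested on simulated data.

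The members and the 44 gene lists were chosen with earlier results of these data known. Named were the 10 genes above and 10 below with the smallest p among genes whose arrays did not overlap, all magnesium transport and cholesterol synthesis genes measured, the 2 brightest and 2 of smallest p of a list, the 10 brightest genes and the 5 of widest spread in each diet. Cyp2c13, Cyp2a2, Igfals and Dusp4, and the dim members Fxyd2 and Slc12a3, lie outside this rule and were named after their values were seen. Alternatives covered the scaling, the floor, the filter, the arrays in the fit, the spread model, the 3'/5' ratios as covariates, the mean over probe sets of a gene and each array left out. Array numbers are not shared between diets.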

Additional observations from a re-analysis of the deposited data

Results flagged for a closer look

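Some named genes had 1 array far from the others of its diet, by Dixon's test of the gap to the nearest array. There were 12 such arrays among the 152 combinations examined of a diet with a named gene or a control ratio. The test's nominal rate of about 1 in 20 cannot be set against this count. Some of the genes were named for their values on these arrays, and the brightest hold tied values. On the standard diet array 9 was low for Cyp2c11, at 9.74 with the next at 11.97, and for Cyp2c13, at 8.93 with the next at 11.15. Standard array 10 was low for Ssh3 (3.07, next 4.09), standard array 8 high for Kcnh4 (5.00, next 4.39) and standard array 7 low for Itih3 (11.83, next 12.06). On the deficient diet array 14 was low for Ppp1r21 (5.67, next 5.86) and for Ptp4a2 (8.51, next 8.93). The rest were gaps of small size in the brightest genes. They were 13.07 for Alb on standard array 8, 12.85 for Apoc3 on deficient array 11 and 13.18 for Apoe on deficient array 12. Serpina1 was at 12.82 on deficient array 12 and on standard array 7. For these genes the normalisation leaves few distinct values.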

How the results depend on the processing

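In limma, 0 probe sets had an adjusted p under 0.05 under every setting except the one with no filter on dim probe sets. That setting gave 1, Dusp4, at 8 of 14 arrays on the floor, 5 of them the standard arrays, so its SD there was 0 (difference 0.44, adjusted p = 0.0209). Its deposited signals were 3.41 to 6.59 units on the deficient and 1.95 to 3.81 on the standard arrays. The smallest adjusted p elsewhere ran from 0.237, without deficient array 12, to 1. The 156 probe sets at an unadjusted p under 0.05 became 364 with no filter, 89 with the filter at the 60th percentile and 236 with array weights. With only the 9 arrays in the scaling and the fit they were 177. They ran from 94, without deficient array 13, to 217, without standard array 10, with 1 array left out. The 54 genes whose arrays did not overlap became 33 with the filter at the 60th percentile, where fewer genes are measured, and 37 with the deposited values. Leaving out 1 array gave 73 to 113, and leaving out standard array 10 and deficient array 13, chosen after seeing the data for their 3'/5' ratios, gave 152. Fewer arrays raise this count by construction. A named difference larger than its SE was taken to have a direction, and 1 of these reversed: Slc41a3, which ran from -0.67 without deficient array 11 to 0.023 without deficient array 14. The median over all genes ran from 0.005, with the deposited values, to 0.075, with arrays centred on their median. The number of arrays limits all of this, and no paired analysis was possible because the diets share no array numbers.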
